A study of Mus musculus with 11 samples.

Results

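Neural progenitor genes were examined in mouse embryonic stem (ES) cells that had been grown in 3 media. The 7 genes were listed by name, with earlier results of these data known: Sox1 and Sox3, Sox11, Pax6, Neurog2, Nes and Tubb3. They were found on the array by matching the RefSeq accession of each probe to a mouse gene symbol, which gave 7 of 20964 named genes and 10 probes. All 7 were among the 16279 genes tested, a gene being tested where 3 or more of the 11 arrays detected a probe of it well above background. Unsorted cells of the lines HVJu9.3, E14 and HVJu5.1, all of 129/Ola strain background, were passaged 3 times or more in 1 of the media. Their RNA was hybridised to one-colour Agilent arrays, 3 for serum/LIF, 5 for 2i/LIF and 3 for KOSR/LIF. All 3 media hold LIF (leukaemia inhibitory factor), which supports self-renewal. 2i/LIF and KOSR/LIF are serum-free. 2i/LIF holds inhibitors of the kinases MEK and GSK3, and KOSR/LIF holds a defined replacement in place of serum. 2i/LIF and serum/LIF thus differ in serum as well as in the inhibitors. Each line gave 1 culture in serum/LIF and 1 in KOSR/LIF, and the labels disagree on which line gave replicates 1 to 4 of 2i/LIF. By either set of labels the 5 arrays of 2i/LIF came from these 3 lines, with HVJu5.1 and HVJu9.3 giving more than 1 each. The main fit takes these arrays as separate replicates.

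Neural progenitors form when the early ectoderm is turned to a neural fate. Sox1, Sox3 and their relative Sox2 belong to the SoxB1 transcription factors, which hold cells in a dividing progenitor state, and Sox1 is among the earliest genes specific to the neural plate. Pax6 patterns the forebrain, eye and spinal cord. Neurog2 is a basic helix-loop-helix factor that drives progenitors to become neurons, and Sox11, of the SoxC group, acts as those neurons mature. Nes (nestin) is an intermediate filament of dividing progenitors, and Tubb3 is the beta-tubulin isotype of neurons. ES cells can reach this fate when LIF is withdrawn, and signalling through MEK and ERK is needed for that step.

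Sox11, Pax6 and Sox3 had lower levels in 2i/LIF than in both other media. The changes from serum/LIF were 35.1-fold for Sox11, 11.9-fold for Pax6 and 7.93-fold for Sox3, with the probe well above background on 2, 1 and 4 of the 5 arrays of 2i/LIF. On the log2 scale these are -5.13, -3.58 and -2.99, and with a floor set under the dim signals -4.81, -2.56 and -2.90. Sox1 was also lower in 2i/LIF than in KOSR/LIF, by 2.67-fold, on the brighter of its probes. With its second probe in the fit the log2 change was -0.12 (adjusted p = 0.92, limma). The call was kept in 12 of 29 alternatives of the processing. Nes and Tubb3 were well above background on all 11 arrays and passed the test in none of the 3 comparisons, at adjusted p of 0.231 or more for Nes and 0.649 or more for Tubb3. Neurog2 was near background on most arrays. The arrays measured whole cultures, so fewer cells expressing a gene and less RNA per cell cannot be told apart.

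The samples carried the markers of ES cells, and 1 array was dimmer than the rest. All 8 ES cell markers (Pou5f1, Nanog, Sox2, Zfp42, Esrrb, Klf4, Tdgf1 and Utf1) were well above background on every array. KOSR/LIF replicate 3 had the lowest Pou5f1 (3.69, against 5.65 to 6.27 on the other arrays, as log2 levels) and the lowest Nanog (1.21 against 2.93 to 4.63), and also the lowest Sox2, Zfp42, Esrrb and Tdgf1. The share of probes well above background was 53.7% to 72.6% on 10 arrays and 43.7% on KOSR/LIF replicate 3, whose upper-quartile intensity was 65.3 against 176 to 538 on the others. The arrays were scanned on 3 days. Day 1 held serum/LIF replicates 1 and 2, 2i/LIF replicates 3 and 4 and KOSR/LIF replicates 1 and 2. On day 2 were 2i/LIF replicate 2 and KOSR/LIF replicate 3, and on day 3 serum/LIF replicate 3 and 2i/LIF replicates 1 and 5. No spot was saturated.

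The DNA around the starts of these genes is shown because several of them moved together. RefSeq (GRCm38.p6) gave a window of 250 bases before and 50 bases after the start for 6 of the 7 genes, with 2 start sites for Pax6. Sox3 was not matched. The 250 bases before the start of Sox11 and Pax6, which were far lower in 2i/LIF, and of Sox1 and Tubb3, which were not called between 2i/LIF and serum/LIF, read as follows, 5′ to 3′ in the direction of transcription, with each CpG pair in capitals. CpG is the pair of bases that carries DNA methylation in mammals.
Sox11, chr12:27342719-27342968, minus strand: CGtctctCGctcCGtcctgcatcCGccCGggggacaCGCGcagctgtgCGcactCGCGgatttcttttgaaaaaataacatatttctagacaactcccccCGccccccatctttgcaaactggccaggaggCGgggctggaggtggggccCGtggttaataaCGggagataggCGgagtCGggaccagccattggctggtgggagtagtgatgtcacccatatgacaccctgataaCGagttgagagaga
Pax6, first start site, chr2:105668646-105668895, plus strand: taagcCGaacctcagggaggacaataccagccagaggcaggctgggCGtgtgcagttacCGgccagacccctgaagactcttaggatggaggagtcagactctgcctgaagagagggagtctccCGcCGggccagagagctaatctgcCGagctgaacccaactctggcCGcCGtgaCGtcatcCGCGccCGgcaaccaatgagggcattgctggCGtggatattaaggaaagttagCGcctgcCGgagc
Sox1, chr8:12395269-12395518, plus strand: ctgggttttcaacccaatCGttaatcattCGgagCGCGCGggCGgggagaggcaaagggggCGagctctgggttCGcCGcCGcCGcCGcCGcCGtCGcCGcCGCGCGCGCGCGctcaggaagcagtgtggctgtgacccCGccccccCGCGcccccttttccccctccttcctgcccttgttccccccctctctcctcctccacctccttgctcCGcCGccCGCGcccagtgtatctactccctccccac
Tubb3, chr8:123411303-123411552, plus strand: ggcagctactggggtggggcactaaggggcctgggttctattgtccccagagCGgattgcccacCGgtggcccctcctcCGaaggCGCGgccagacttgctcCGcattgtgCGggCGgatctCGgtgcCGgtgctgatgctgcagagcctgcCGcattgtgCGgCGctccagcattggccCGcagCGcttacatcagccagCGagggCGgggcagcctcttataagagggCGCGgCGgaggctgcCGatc

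These windows are richer in CpG than most mouse promoters. Over the 300 bases there are 21 CpG pairs at Sox11, 18 and 16 at the 2 start sites of Pax6, 37 at Sox1, 18 at Nes, 26 at Tubb3 and 10 at Neurog2, where the median of 32851 windows of that length is 7. Sox1 has more CpG than 94.4% of them and Neurog2 more than 56.5%. Genes whose levels differed between media and genes whose levels did not pass stand side by side in this ranking, with Sox11 at 75.2% and Tubb3 at 83.1%. The GC box GGGCGG, searched on both strands, occurs 2 times at each of Sox11, Nes, Tubb3 and Neurog2 and 3 times at Sox1, and 35.7% of all windows hold it. ATGCAAAT, the octamer bound by POU factors, occurs 1 time, at Sox1 (1.74% of all windows). ACAAAG, a core read by Sox factors, occurs 1 time, at the other start site of Pax6 (18.7% of all windows). None of these windows holds the TATA motif TATAAA, which 13.6% of all windows hold. The same is true of the ETS core CCGGAAG (8.86% of all windows) and of the TCF core TTCAAAG (5.14% of all windows).

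Sox11 fell the most of the 7 genes between serum/LIF and 2i/LIF. Levels here and below are log2 of the processed intensity after the array's 75th percentile is subtracted, so that 0 is that percentile. Sox11 stood at 0.98, 0.67 and 0.77 on serum/LIF replicates 1 to 3, and at -1.28, -0.43 and 0.53 on KOSR/LIF replicates 1 to 3. On 2i/LIF replicates 1 to 5 it stood at -4.60, -4.23, -3.52, -5.45 and -3.83, and the probe was well above background on replicates 3 and 5 alone. The 5 arrays of 2i/LIF lay below all 6 others, and the KOSR/LIF arrays lay below those of serum/LIF. The means were 0.81 ± 0.16 (SD, n = 3) in serum/LIF, -0.39 ± 0.91 (SD, n = 3) in KOSR/LIF and -4.33 ± 0.75 (SD, n = 5) in 2i/LIF.

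The fall of Sox11 in 2i/LIF against serum/LIF was -5.13 ± 0.46 (log2 change ± SE, adjusted p = 2.46e-05, limma). Against KOSR/LIF it was -3.93 ± 0.46 (15.3-fold, adjusted p = 0.00021). With each signal that was not well above background raised to the lowest such signal of its array, the changes were -4.81 and -3.61. Within scan day 1 the change against serum/LIF was -5.31 (adjusted p = 0.00785) and within scan day 3 it was -4.99 (adjusted p = 0.0125). Scan day 3 holds 1 serum/LIF array, so tests within it assume that this array varies like the 2 of 2i/LIF, and they are no replicate check of serum/LIF. Against KOSR/LIF it was -3.63 within scan day 1 (adjusted p = 0.026), and -4.77 between the single arrays of scan day 2, which allow no test. KOSR/LIF and serum/LIF differed by -1.20 ± 0.51 and this did not pass (adjusted p = 0.232, 95% interval -2.32 to -0.08).

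A second probe of Sox11 gave nearly the same picture. It read -0.77, -0.94 and -0.97 in serum/LIF, -6.90, -5.84, -5.19, -6.31 and -5.26 in 2i/LIF, and -2.69, -1.69 and -1.55 in KOSR/LIF. The probes correlated at r = 0.99 over the 11 arrays, a description of arrays that share media and scan days. In 2i/LIF it was well above background on 1 of 5 arrays. With the dimmer probe of each gene in the fit, a setting added after the data were seen, Sox11 changed by -5.00 (adjusted p = 1.32e-05) in 2i/LIF against serum/LIF and by -3.92 (adjusted p = 0.000119) against KOSR/LIF, or by -3.71 and -2.63 with dim signals raised.

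**Figure D1:**
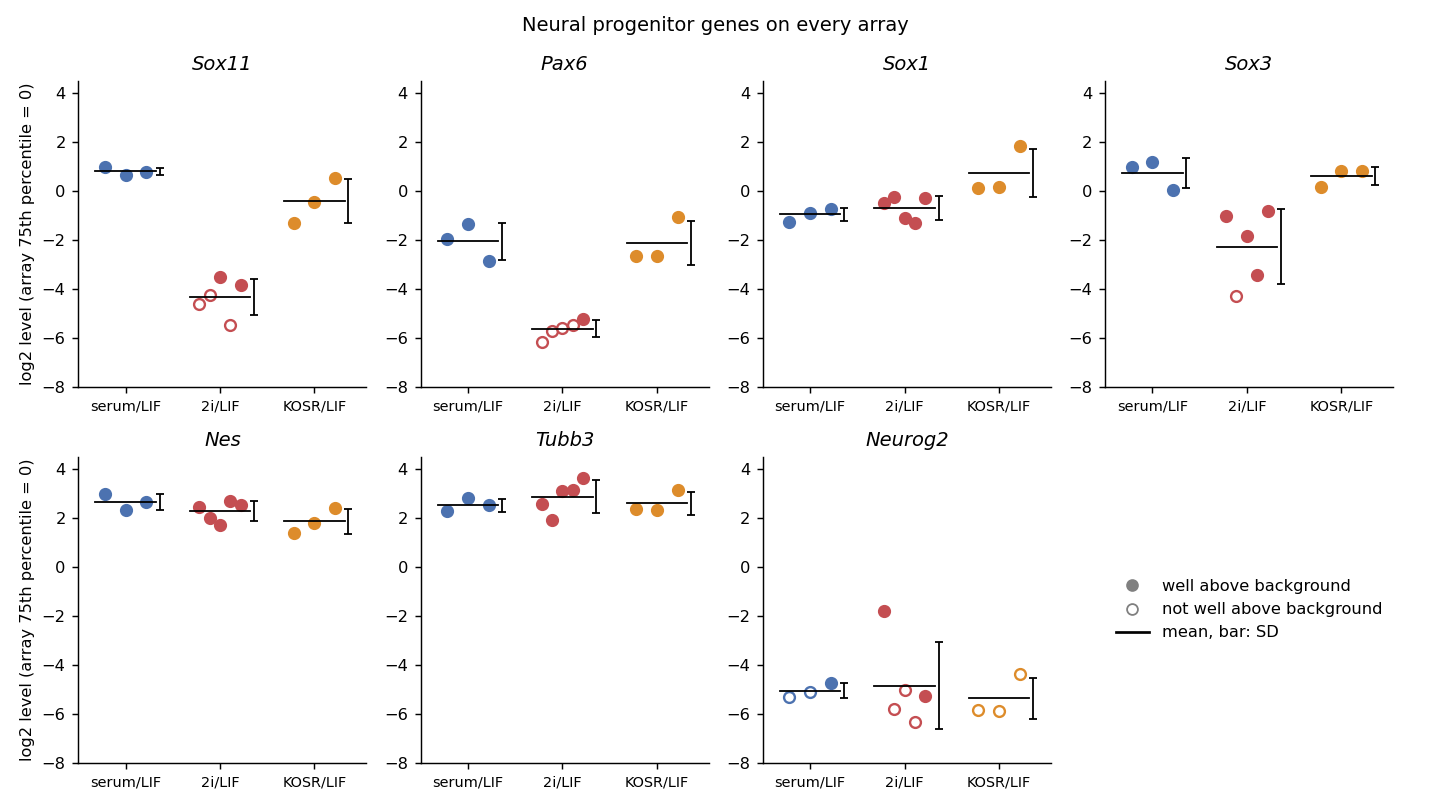
Level of each of the 7 genes on every array (y axis, log2 of processed intensity with the array's 75th percentile at 0), by medium (x axis, replicates in order from left to right). Filled points are well above background, open points are not, lines are means and bars are SD. The 2i/LIF points of Sox11 run from -5.45 to -3.52 and lie below every other point in that panel, and those of Nes (1.71 to 2.70) lie among the serum/LIF and KOSR/LIF points.

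Pax6 showed the same order of 2i/LIF against the other media, from lower signals. It stood at -1.94, -1.34 and -2.84 on serum/LIF replicates 1 to 3 and at -2.63, -2.65 and -1.07 on KOSR/LIF replicates 1 to 3. On 2i/LIF replicates 1 to 5 it stood at -6.15, -5.69, -5.59, -5.46 and -5.20, and only replicate 5 was well above background. The arrays of serum/LIF and KOSR/LIF overlapped and all 6 lay above those of 2i/LIF. Means were -2.04 ± 0.76 (SD, n = 3) in serum/LIF, -2.12 ± 0.91 (SD, n = 3) in KOSR/LIF and -5.62 ± 0.35 (SD, n = 5) in 2i/LIF.

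Pax6 changed by -3.58 ± 0.42 on the log2 scale in 2i/LIF against serum/LIF (adjusted p = 0.000161) and by -3.50 ± 0.42 against KOSR/LIF (11.3-fold, adjusted p = 0.000277). With dim signals raised as for Sox11 the changes were -2.56 and -2.48. Within scan day 1 they were -3.89 (adjusted p = 0.00219) and -2.88 (adjusted p = 0.0049). Against serum/LIF the change was -2.83 within scan day 3 (adjusted p = 0.0457, 1 serum/LIF array), and against KOSR/LIF it was -4.61 between the single arrays of scan day 2. Both calls ended under the normexp background correction, which adds an offset of 50 to each intensity, at -0.94 (adjusted p = 0.154) and -1.10 (adjusted p = 0.0837). Sox11 and Sox3 kept their calls there, at -2.83 and -1.85 against serum/LIF and -1.75 and -1.71 against KOSR/LIF. KOSR/LIF and serum/LIF differed by -0.08 ± 0.47 for Pax6 (adjusted p = 0.944, 95% interval -1.12 to 0.96). No array detected the second Pax6 probe well above background, and it entered no test.

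Sox3 was lower in 2i/LIF and varied most there. Its levels were 0.97, 1.18 and 0.03 on serum/LIF replicates 1 to 3 and 0.18, 0.83 and 0.84 on KOSR/LIF replicates 1 to 3. On 2i/LIF replicates 1 to 5 they were -1.02, -4.26, -1.81, -3.43 and -0.79, and replicate 2 was not well above background. All 5 lay below the other 6 arrays, with an SD of 1.52 around a mean of -2.26 against 0.62 around 0.73 in serum/LIF and 0.38 around 0.61 in KOSR/LIF (n = 5, 3 and 3). The highest 2i/LIF values were those of replicates 1 and 5, the arrays of scan day 3.

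The change of Sox3 was -2.99 ± 0.71 in 2i/LIF against serum/LIF (adjusted p = 0.0121) and -2.88 ± 0.71 against KOSR/LIF (7.34-fold, adjusted p = 0.0181). Within scan day 1 it was -3.70 (adjusted p = 0.0132) and -3.12 (adjusted p = 0.0244), and within scan day 3, with its 1 serum/LIF array, it was -0.93 (adjusted p = 0.265). The single arrays of scan day 2 differed by -5.10. With dim signals raised the pooled changes were -2.90 and -2.78. Leaving out serum/LIF replicate 1 or 2 ended the call against serum/LIF, at -2.87 and -2.76 with adjusted p of 0.0544 and 0.0583. Leaving out KOSR/LIF replicate 2 or 3 ended that against KOSR/LIF, at -2.77 and -2.76 with adjusted p of 0.0604 and 0.0653, as did slide as a block (-2.68, adjusted p = 0.0635). KOSR/LIF and serum/LIF differed by -0.11 ± 0.80 (adjusted p = 0.952, 95% interval -1.85 to 1.63).

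Sox1, the other SoxB1 gene of the set, was highest in KOSR/LIF on its brighter probe. It stood at -1.24, -0.88 and -0.71 on serum/LIF replicates 1 to 3, at -0.50, -0.23, -1.10, -1.29 and -0.28 on 2i/LIF replicates 1 to 5, and at 0.15, 0.19 and 1.86 on KOSR/LIF replicates 1 to 3. It was well above background on all 11 arrays. The KOSR/LIF arrays lay above all others, and serum/LIF and 2i/LIF overlapped. Means were 0.74 ± 0.97 (SD, n = 3) in KOSR/LIF, -0.68 ± 0.49 (SD, n = 5) in 2i/LIF and -0.94 ± 0.27 (SD, n = 3) in serum/LIF.

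Sox1 differed by -1.42 ± 0.41 between 2i/LIF and KOSR/LIF (adjusted p = 0.0371). KOSR/LIF exceeded serum/LIF by 1.68 ± 0.46, which did not pass (adjusted p = 0.0608, 95% interval 0.68 to 2.68), and 2i/LIF and serum/LIF differed by 0.26 ± 0.41 (adjusted p = 0.781, 95% interval -0.63 to 1.15). Within scan day 1 KOSR/LIF exceeded serum/LIF by 1.23 (adjusted p = 0.0379), and with scan day as a block by 1.49 (adjusted p = 0.0128). On that day 2i/LIF lay below KOSR/LIF by -1.37 (adjusted p = 0.0148), and the single arrays of scan day 2 differed by -2.09. 2i/LIF and serum/LIF differed by -0.14 within scan day 1 (adjusted p = 0.711) and by 0.32 within scan day 3, which holds 1 serum/LIF array. All these values are from the brighter probe. On the second probe, KOSR/LIF replicates 1 and 2, of scan day 1, read -1.96 and -2.13. These lay below serum/LIF replicates 1 and 2 of that day, at -1.67 and -1.67.

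The Sox1 call depended on the probe, on cell line as a block and on single arrays. Its second probe read -1.67, -1.67 and -1.44 in serum/LIF, -0.54, -0.74, -1.45, -1.57 and -1.83 in 2i/LIF and -1.96, -2.13 and 0.78 in KOSR/LIF. On that probe KOSR/LIF replicates 1 and 2 were the lowest arrays and replicate 3 the highest, and r with the other probe was 0.62. With the second probe in the fit the change of 2i/LIF against KOSR/LIF was -0.12 (adjusted p = 0.92), and with the mean of both it was -0.77 (adjusted p = 0.325). With cell line as a block it was -1.46 by the lines in the titles (adjusted p = 0.0516) and -1.43 by those in the source names (adjusted p = 0.0559). Without KOSR/LIF replicate 3 it was -0.85 (adjusted p = 0.124). The call also ended without any 1 of serum/LIF replicates 1 to 3 or of 2i/LIF replicates 1, 3 and 4, and over these 7 arrays the adjusted p ran from 0.0507 to 0.124 and the change from -1.46 to -0.85. It was kept in 12 of 29 alternatives. On KOSR/LIF replicate 3 the 12 neuron markers tested also summed to 158 times the array's 75th percentile, against 29.8 to 64.8 on the 10 other arrays. The synaptic gene Snap25 alone gave 112 of this sum, and the other 11 markers came to 45.9, against 19.4 to 56.1 elsewhere. The part of this, and of the low Pou5f1 and Nanog on that array, in the Sox1 result was not tested.

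**Figure D2:**
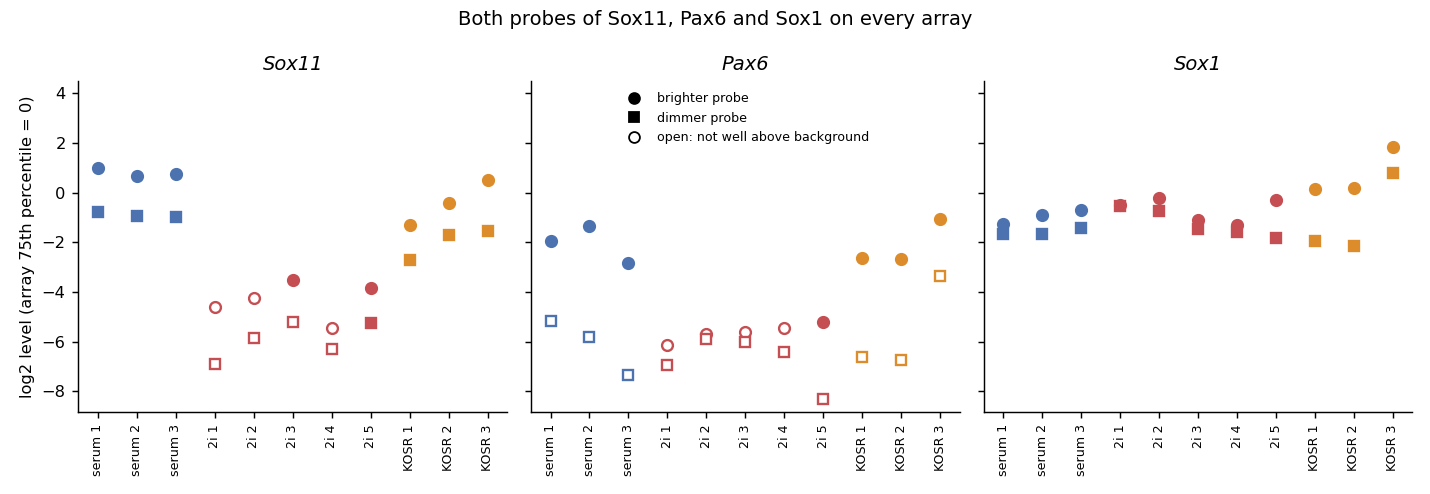
Both probes of Sox11, Pax6 and Sox1 on each array (y axis, log2 level with the array's 75th percentile at 0; x axis, the 11 arrays by medium and replicate). Circles are the brighter and squares the dimmer probe, and open symbols are not well above background. The pair runs in parallel for Sox11 (r = 0.99), while the dimmer Sox1 probe lies at -1.96 and -2.13 on KOSR/LIF replicates 1 and 2 where the brighter one lies at 0.15 and 0.19.

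Neurog2, the proneural factor, gave hardly any signal. It was well above background on 3 arrays, serum/LIF replicate 3 (-4.73) and 2i/LIF replicates 1 (-1.81) and 5 (-5.26), which are all the arrays of scan day 3. It passed the filter on dim probes through these 3 alone. The remaining arrays read -5.32 and -5.10 in serum/LIF, -5.81, -5.02 and -6.34 in 2i/LIF and -5.83, -5.88 and -4.39 in KOSR/LIF. Apart from 2i/LIF replicate 1, the media overlapped. The fitted changes were 0.20 ± 0.83 in 2i/LIF against serum/LIF (adjusted p = 0.931), -0.32 ± 0.93 in KOSR/LIF against serum/LIF (adjusted p = 0.877) and 0.52 ± 0.83 in 2i/LIF against KOSR/LIF (adjusted p = 0.741).

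Nes, the intermediate filament gene, was bright in every medium. It stood at 2.97, 2.32 and 2.67 in serum/LIF, at 2.43, 2.01, 1.71, 2.70 and 2.52 in 2i/LIF and at 1.38, 1.80 and 2.39 in KOSR/LIF. The media overlapped in all 3 pairs. The order of the means was serum/LIF (2.65 ± 0.33, SD, n = 3), 2i/LIF (2.27 ± 0.40, SD, n = 5) and KOSR/LIF (1.86 ± 0.51, SD, n = 3), and no neighbours in it differed beyond their spread. The changes were -0.38 ± 0.30 in 2i/LIF against serum/LIF (adjusted p = 0.509, 95% interval -1.04 to 0.28), -0.79 ± 0.34 in KOSR/LIF against serum/LIF (adjusted p = 0.231, 95% interval -1.53 to -0.05) and 0.41 ± 0.30 in 2i/LIF against KOSR/LIF (adjusted p = 0.424, 95% interval -0.25 to 1.08).

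Tubb3, the tubulin isotype known from neurons, was also bright in all 3 media. Its levels were 2.27, 2.80 and 2.51 in serum/LIF, 2.58, 1.90, 3.10, 3.15 and 3.63 in 2i/LIF and 2.35, 2.32 and 3.13 in KOSR/LIF. These ranges overlapped, and 2i/LIF held both the lowest and the highest array. Means were 2.87 ± 0.66 (SD, n = 5) in 2i/LIF, 2.60 ± 0.46 (SD, n = 3) in KOSR/LIF and 2.52 ± 0.27 (SD, n = 3) in serum/LIF. The changes were 0.35 ± 0.37 in 2i/LIF against serum/LIF (adjusted p = 0.649, 95% interval -0.45 to 1.15), 0.07 ± 0.41 in KOSR/LIF against serum/LIF (adjusted p = 0.938, 95% interval -0.82 to 0.97) and 0.27 ± 0.37 in 2i/LIF against KOSR/LIF (adjusted p = 0.688, 95% interval -0.53 to 1.07).

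As a set, 3 of the 7 genes fell in 2i/LIF against serum/LIF and none rose. Over all genes tested, 16.7% were called in this comparison, 9.98% lower and 6.74% higher. The arrays of the 2 media did not overlap for the same 3 genes, Sox11, Pax6 and Sox3, against 25.7% of all genes (14% lower and 11.7% higher). Against KOSR/LIF, 4 of 7 were lower in 2i/LIF, none was higher, and the arrays of these 4 did not overlap. Of these, Sox1 was called on its brighter probe alone. Of all genes 14.7% were called there, 8.72% lower and 5.95% higher, and 19.6% did not overlap, 10.6% lower and 9.04% higher. Between KOSR/LIF and serum/LIF none of the 7 was called by limma at the adjusted threshold (4.58% of all genes, 2.37% higher and 2.21% lower). At an unadjusted p under 0.05 there were 3 (Sox1, Sox11 and Nes), beside 18.7% of all genes, and the arrays of Sox11 and Sox1 did not overlap (28.4% of all genes, 12.4% higher and 16% lower). The median change of the 7 genes was -0.38, -0.11 and -1.42 in 2i/LIF against serum/LIF, KOSR/LIF against serum/LIF and 2i/LIF against KOSR/LIF, beside 0.03, -0.03 and 0.02 over all genes tested. Each medium's arrays serve in 2 of these comparisons. The 7 genes were listed with earlier results of these data known, so their counts are a description.

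**Figure D3:**
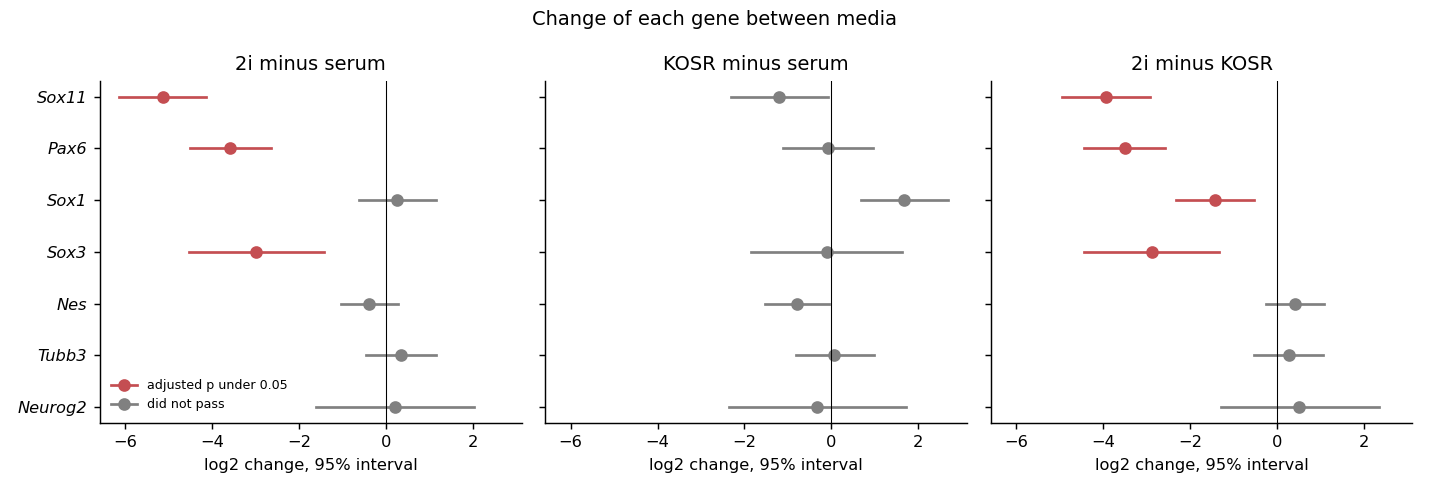
Log2 change of each gene (x axis) in the 3 comparisons of media (panels), with the 95% interval from the fit over 11 arrays. Red marks an adjusted p under 0.05. Sox11, Pax6 and Sox3 lie to the left of 0 in both comparisons that involve 2i/LIF, Sox1 in 2i/LIF against KOSR/LIF alone, and all 7 intervals of KOSR/LIF against serum/LIF are drawn in grey.

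Over the arrays of all media the levels of Sox11, Pax6 and Sox3 gave the closest pairs of the set. Pearson's r over 11 arrays was 0.94 for Sox11 with Pax6, 0.85 for Sox11 with Sox3 and 0.83 for Pax6 with Sox3. After each medium's mean was subtracted these were 0.44, 0.39 and 0.20. Sox1 gave 0.27 with Sox11 and 0.30 with Sox3, and Nes gave 0.11 and 0.06 with Sox11 and Sox3. With the medium means subtracted, other pairs were closer: 0.60 for Sox11 with Sox1, 0.58 for Pax6 with Tubb3, and 0.56 for Sox3 with both Tubb3 and Neurog2. These values describe arrays that share medium and scan day.

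Of all other genes tested, the ones most like each gene by Pearson's r over the 11 arrays were as follows. Sox11 was followed by Fkbp10 (0.982), Stbd1 (0.977) and Nrsn1 (0.977). Fkbp10 had means of 3.81, 0.66 and 3.18 in serum/LIF, 2i/LIF and KOSR/LIF, so it too was lowest in 2i/LIF. Pax6 was followed by Fgf15 (0.986), Camkv (0.982) and Myrf (0.970), and Fgf15 kept an r of 0.860 after the medium means were subtracted. For Sox3 the genes were Fjx1 (0.967), Bves (0.966) and Lysmd2 (0.965), and all 3 kept an r of 0.904 to 0.923 within media. Sox1 ran with Chrnb4 (0.963), Fam240a (0.940) and Nxf2 (0.933), all highest in KOSR/LIF. Nes ran with Atp2c1 (0.893), Ang4 (0.851) and Ggh (0.850), and Tubb3 with Rbm3 (0.908), Sorcs1 (0.906) and Ythdf2 (0.899). For Neurog2, whose signal rests on few arrays, they were Kcnab1 (0.925), Olfr608 (0.906) and Kif18a (0.905). Some of the genes named were dim as well. Ang4 was well above background on 2, 2 and 0 arrays of serum/LIF, 2i/LIF and KOSR/LIF, Olfr608 on 1, 2 and 0 and Fam240a on 1, 2 and 3. Their r rests in part on background signal.

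Other neural genes were read from 8 lists covering 162 distinct genes, of which 161 were on the array and 138 were tested. In 2i/LIF against serum/LIF 7 were higher and 30 lower (26.8% called, against 16.7% of all genes), with a median change of -0.17. In KOSR/LIF against serum/LIF none was higher and 12 were lower (8.70%, median -0.14), against 4.58% of all genes. In 2i/LIF against KOSR/LIF 9 were higher and 29 lower (27.5%, median -0.17, against 14.7% of all genes). The lists were drawn up with earlier results of these data known, so their counts are a description. The counts of each list below stand beside the same shares of all genes, 16.7%, 4.58% and 14.7%.

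The early neural plate factors moved in both directions in 2i/LIF against serum/LIF. Of 26 tested, 3 rose and 3 fell (median -0.19), beside 6.74% of all genes higher and 9.98% lower. Meis2, a homeobox cofactor, rose by 3.28 ± 0.55 (adjusted p = 0.00156), as did Lhx2 (2.19 ± 0.57), a forebrain and eye factor, and En2 (1.62 ± 0.34), a midbrain and hindbrain factor. Pou3f1, a POU factor of the epiblast and early neural tissue, changed by -4.56 ± 0.32 (adjusted p = 4.93e-06) and Otx2, of the anterior brain and epiblast, by -2.53 ± 0.59. Otx2 did not pass when serum/LIF replicate 1 was left out (-2.35, adjusted p = 0.0551), nor did Lhx2 when serum/LIF replicate 1 or 3 was (1.96 to 2.25, adjusted p 0.0591 to 0.0962). The Lhx2 call also ended with slide as a block (1.81, adjusted p = 0.0801) and within scan day 1 (1.20, adjusted p = 0.305).

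Against KOSR/LIF, 1 of these 26 was higher in 2i/LIF and 7 were lower (median -0.72). Sox2, the SoxB1 gene that ES cells share with neural progenitors, was higher by 0.80 ± 0.23 (adjusted p = 0.0334). Irx3, a homeobox gene of the neural tube, was lower by -4.78 ± 0.71 (-4.00 with dim signals raised), Pou3f1 by -2.88 ± 0.32 and Otx2 by -2.34 ± 0.59. The Sox2 call ended without any 1 of serum/LIF replicate 1, 2i/LIF replicates 1, 3, 4 and 5 and KOSR/LIF replicates 2 and 3 (0.58 to 0.89, adjusted p 0.0532 to 0.0986). With the deposited value table Sox2 differed by 0.18 (adjusted p = 0.652). The Otx2 call ended without KOSR/LIF replicate 1 or 3 (-2.28 to -2.17, adjusted p 0.0640 to 0.0745). In KOSR/LIF against serum/LIF 2 of 26 fell, Pou3f1 (-1.69 ± 0.36) and Sox2 (-1.35 ± 0.25), while the list's median was 0.49. Pou3f1 was lost there without any 1 of serum/LIF replicates 1 to 3 or KOSR/LIF replicates 1 and 2 (-1.72 to -1.39, adjusted p 0.0685 to 0.0858). Sox2 was lost without serum/LIF replicate 1 or 3 (-1.40 to -1.23, adjusted p 0.0533 to 0.0542). With the deposited value table neither passed, Pou3f1 at -1.33 (adjusted p = 0.13) and Sox2 at -0.76 (adjusted p = 0.117).

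Of 20 progenitor and Notch pathway genes tested, 7 fell and none rose in 2i/LIF against serum/LIF (median -0.60). Slc1a3, the glutamate transporter of radial glia, fell by 5.14 ± 0.46 (adjusted p = 2.46e-05, -4.60 with dim signals raised). Hes3, a transcriptional repressor, changed by -3.11 ± 0.80 (-2.23 with dim signals raised) and the Notch ligand gene Dll1 by -2.62 ± 0.75 (-1.98 with dim signals raised). Hes3 was lost without serum/LIF replicate 2 or 3 (-3.06 to -2.92, adjusted p 0.0675 to 0.0773). It also did not pass under normexp (-0.89, adjusted p = 0.197) or within scan day 1 (-1.46, adjusted p = 0.105). The Dll1 call ended without any 1 of serum/LIF replicates 1 to 3 or 2i/LIF replicates 1, 4 and 5 (-2.97 to -2.31, adjusted p 0.0533 to 0.134). Under normexp it ended as well (-0.75, adjusted p = 0.269).

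Against KOSR/LIF, 3 of these 20 were higher in 2i/LIF and 5 lower (median -0.13). The Notch ligand gene Jag1 was higher by 1.74 ± 0.26, the surface glycoprotein gene Cd24a by 1.45 ± 0.35 and the Notch target Hes1 by 1.15 ± 0.28. Slc1a3 was lower by -4.30 ± 0.46 (-3.76 with dim signals raised), Dll1 by -3.08 ± 0.75 (-2.45 with dim signals raised) and Cdh2, which encodes N-cadherin, by -1.74 ± 0.48. Calls ended for Cd24a without KOSR/LIF replicate 1 (1.31, adjusted p = 0.0654) and for Hes1 without KOSR/LIF replicate 1 or 2 (0.95 to 1.14, adjusted p 0.0564 to 0.0880). That for Dll1 ended without KOSR/LIF replicate 3 (-2.71, adjusted p = 0.0762) and under normexp (-1.12, adjusted p = 0.0683). Cdh2 was lost without any 1 of 2i/LIF replicates 3 and 4 and KOSR/LIF replicates 2 and 3 (-1.72 to -1.42, adjusted p 0.0570 to 0.123). In KOSR/LIF against serum/LIF 2 of 20 fell (median -0.51), Cd24a (-1.99 ± 0.39) and Jag1 (-1.57 ± 0.29). Cd24a was lost there without any 1 of replicates 1 and 2 of both media (-1.97 to -1.85, adjusted p 0.0511 to 0.0739), and Jag1 without serum/LIF replicate 1 or 2 (-1.58 to -1.51, adjusted p 0.0510 to 0.0540).

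Of 22 proneural and neuronal fate factors on the array, 13 were tested, and 2 were called in each comparison with 2i/LIF, beside 16.7% (against serum/LIF) and 14.7% (against KOSR/LIF) of all genes. Insm1, a zinc finger factor of newborn neurons and endocrine cells, changed by -4.67 ± 0.60 in 2i/LIF against serum/LIF (adjusted p = 0.000271) and lay lower by -5.04 ± 0.60 against KOSR/LIF (adjusted p = 0.000242). With dim signals raised the values were -3.99 and -4.37. Tcf4, a partner of proneural factors, rose by 1.12 ± 0.21 against serum/LIF. That call ended with its dimmest passing probe in the fit (0.95, adjusted p = 0.109). Olig1, a factor of the oligodendrocyte lineage, was lower in 2i/LIF than in KOSR/LIF by -1.90 ± 0.52, with the probe well above background on 1 array of each (-1.20 at an adjusted p of 0.110 with dim signals raised). The Olig1 call was lost without any 1 of 2i/LIF replicates 1 and 4 and KOSR/LIF replicates 1 to 3 (-2.08 to -1.60, adjusted p 0.0540 to 0.110). The list's medians were 0.07, 0.13 and -0.35 in 2i/LIF against serum/LIF, KOSR/LIF against serum/LIF and 2i/LIF against KOSR/LIF, and none of the 13 was called in KOSR/LIF against serum/LIF.

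Genes of neurons fell in 11 of 28 cases in 2i/LIF against serum/LIF, and none rose (median -0.67). Gap43, of the growing axon, changed by -5.33 ± 0.35 (adjusted p = 3.51e-06), Rbfox3, which encodes the nuclear antigen NeuN, by -4.25 ± 0.57 (-3.34 with dim signals raised) and Stmn4, a microtubule regulator, by -3.90 ± 0.32. KOSR/LIF against serum/LIF had 5 of 28 lower (median -0.54), led by Stmn4 (-2.68 ± 0.35), the dendritic microtubule gene Map2 (-2.67 ± 0.39, or -1.84 at an adjusted p of 0.0749 with dim signals raised) and Gap43 (-2.43 ± 0.39). Against KOSR/LIF, 2 of 28 were higher in 2i/LIF and 8 lower (median -0.23). Stmn3, another stathmin gene, was higher by 2.33 ± 0.44 and the RNA-binding protein gene Elavl2 by 1.90 ± 0.39. Gap43 was lower by -2.90 ± 0.35, the synaptic vesicle gene Syt1 by -2.62 ± 0.70 (adjusted p = 0.0268) and Rbfox3 by -2.53 ± 0.57 (-1.62 with dim signals raised). On a second probe Rbfox3 changed by -1.35 against serum/LIF (adjusted p = 0.106) and -1.16 against KOSR/LIF (adjusted p = 0.173). With dim signals raised Syt1 differed by at least 3.01-fold (-1.59) and did not pass (adjusted p = 0.143). The Syt1 call was also lost without any 1 of 2i/LIF replicates 1, 3 and 5 and KOSR/LIF replicates 1 and 3 (-2.81 to -1.98, adjusted p 0.0501 to 0.124).

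Other tubulin and Sox genes serve as relatives of the set. Of all genes 16.7% were called in 2i/LIF against serum/LIF and 14.7% against KOSR/LIF. Of 14 other tubulin genes tested, 1 passed in each comparison with 2i/LIF, Tubb2b, a beta-tubulin isotype of developing neurons. It was higher in 2i/LIF by 0.94 ± 0.24 against serum/LIF (adjusted p = 0.0179) and by 1.16 ± 0.24 against KOSR/LIF (adjusted p = 0.00714), and none was called in KOSR/LIF against serum/LIF. The first call was lost without serum/LIF replicate 1 or 2 (0.83 to 0.98, adjusted p 0.0536 to 0.0998). Of 12 other Sox genes tested, 2 fell in 2i/LIF against serum/LIF: Sox4, the SoxC partner of Sox11 (-3.33 ± 0.42, adjusted p = 0.000228), and Sox18, an endothelial factor (-2.14 ± 0.55, -1.55 with dim signals raised). Sox18 was lost without serum/LIF replicate 2 or 3 (-2.25 to -1.69, adjusted p 0.0503 to 0.105). Against KOSR/LIF, Sox2 was higher in 2i/LIF and 4 were lower, led by Sox7 (-3.75 ± 0.59, adjusted p = 0.00137), Sox4 (-3.17 ± 0.42) and Sox17 (-1.69 ± 0.47). With its dim 2i/LIF signals raised, Sox7 differed by at least 4.81-fold. Sox7 and Sox17 mark primitive endoderm, and the Sox17 call ended without any 1 of 2i/LIF replicates 1 to 4 and KOSR/LIF replicates 1 and 2 (-1.72 to -1.09, adjusted p 0.0511 to 0.133). Sox2 was the 1 of 12 called in KOSR/LIF against serum/LIF.

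Genes of BMP signalling and neural induction were mixed. BMP signals oppose neural fate, in part through the Id genes, which block proneural factors. Of 15 tested, 2 rose and 5 fell in 2i/LIF against serum/LIF (median -0.01). Bmp7 rose by 2.21 ± 0.46 and Id4 by 2.00 ± 0.49, whereas Id2 (-4.70 ± 0.47), Id1 (-4.59 ± 0.52) and Id3 (-2.52 ± 0.63) fell. Id4 did not pass in the absence of serum/LIF replicate 1 (1.82, adjusted p = 0.0716) or Id3 without serum/LIF replicate 1 or 3 (-2.38 to -2.37, adjusted p 0.0669 to 0.0688). Between KOSR/LIF and serum/LIF 3 differed, all lower in KOSR/LIF (median -0.98): Id2 (-2.70 ± 0.52), Id1 (-2.66 ± 0.58) and Fst, the activin antagonist follistatin (-1.90 ± 0.31). Fst did not pass with the deposited value table (-1.02, adjusted p = 0.285) or under normexp (-1.15, adjusted p = 0.0622). The Id2 call was lost there without serum/LIF replicate 1 or 3 (-2.59 to -2.52, adjusted p 0.0566 to 0.0747), and the Id1 call without any 1 of the 6 arrays compared (-2.88 to -2.50, adjusted p 0.0559 to 0.104). Against KOSR/LIF, Id4 (3.75 ± 0.49) and Fst (2.22 ± 0.27) were higher in 2i/LIF and Id2 (-1.99 ± 0.47) and Id1 (-1.94 ± 0.52) lower (median 0.00). Of these, Id2 was lost without KOSR/LIF replicate 2 or 3 (-1.74 to -1.71, adjusted p 0.0631 to 0.0637) and Id1 without any 1 of KOSR/LIF replicates 1 to 3 (-2.06 to -1.84, adjusted p 0.0565 to 0.0822).

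The REST complex, which represses neuronal genes in other cells, had 1 of 13 tested genes called. The shares of all genes were 16.7% in 2i/LIF against serum/LIF and 14.7% against KOSR/LIF. Phf21a, a histone reader of the complex, was lower in 2i/LIF by -0.68 ± 0.20 against serum/LIF (adjusted p = 0.0331) and by -1.10 ± 0.20 against KOSR/LIF (adjusted p = 0.003). On its second probe the changes were -0.22 (adjusted p = 0.703) and -0.78 (adjusted p = 0.0778), and both calls ended. The first call was also lost without any 1 of serum/LIF replicates 1 to 3, 2i/LIF replicates 3 to 5 and KOSR/LIF replicate 1 (-0.76 to -0.63, adjusted p 0.0511 to 0.129). No gene of this list was called in KOSR/LIF against serum/LIF, and the medians were 0.05, -0.10 and 0.19 in 2i/LIF against serum/LIF, KOSR/LIF against serum/LIF and 2i/LIF against KOSR/LIF.

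**Figure D4:**
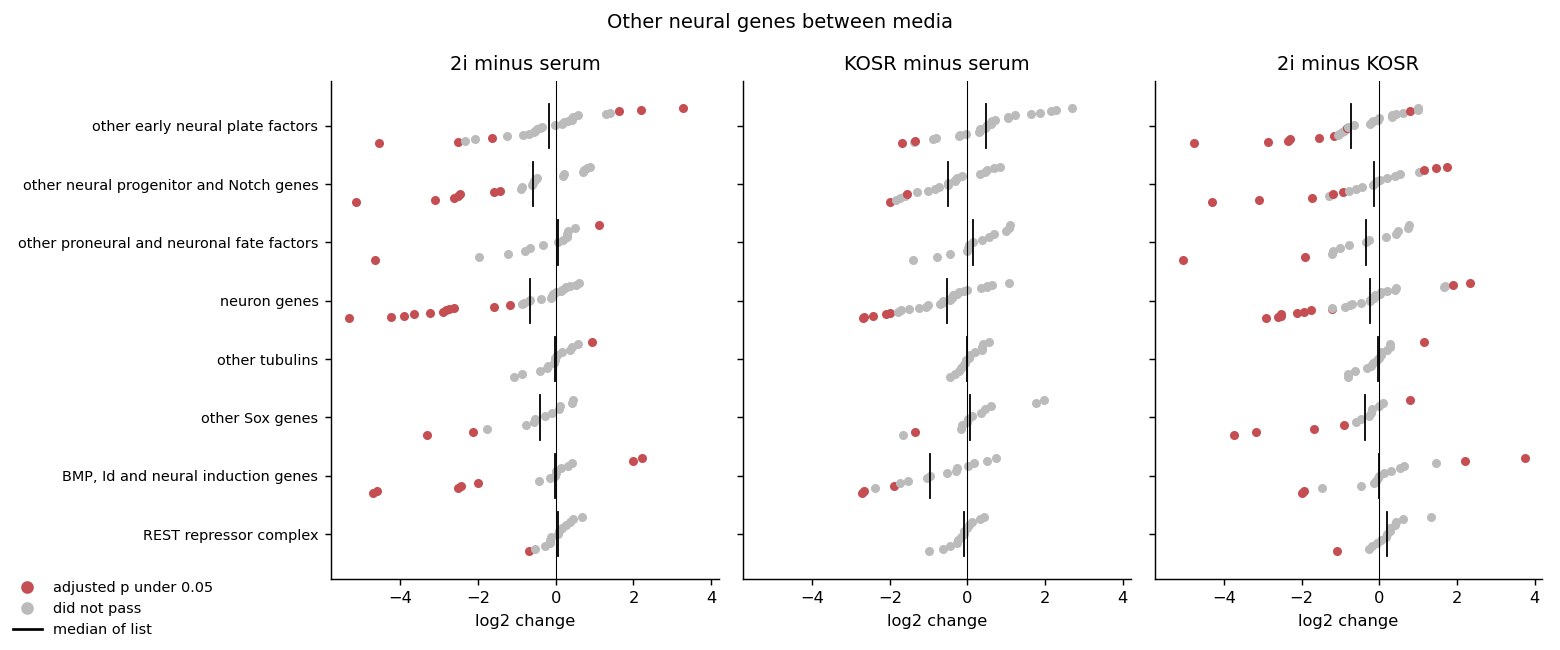
Log2 change (x axis) of every tested gene of the 8 lists (rows) in the 3 comparisons (panels), with red for an adjusted p under 0.05 and a vertical bar at each list's median. Points are spread vertically by rank only to keep them apart. In 2i/LIF against serum/LIF the red points of the neuron and the progenitor and Notch lists all lie left of 0, 11 of 28 and 7 of 20, and those of the neural plate list lie on both sides.

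Markers of other cell states moved with some of these results, and their part in them was not tested. Summed levels are given as multiples of the array's 75th percentile. The 8 formative epiblast markers, of cells leaving the naive state, summed to 81.3 to 134 in serum/LIF, 39.5 to 86.0 in KOSR/LIF and 15.2 to 45.4 in 2i/LIF. Of the 8, 4 fell in 2i/LIF against serum/LIF, beside 9.98% of all genes, with Fgf5 not well above background on any 2i/LIF array. The 6 primitive endoderm markers summed to between 1.05 and 8.55 in KOSR/LIF, between 0.478 and 1.20 in serum/LIF and between 0.275 and 0.541 in 2i/LIF. All 6 were lower in 2i/LIF than in KOSR/LIF, beside 8.72% of all genes. Of these, Sox7, Dab2 and Pdgfra were well above background on 0, 1 and 2 of the 5 arrays of 2i/LIF. The sum of 1.05 was that of KOSR/LIF replicate 3, where 1 of the 6 was well above background. The 7 fibroblast markers tested of 8 summed to 3.72 to 13.4, 1.87 to 2.53 and 7.11 to 12.4 in serum/LIF, 2i/LIF and KOSR/LIF.

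Markers of differentiated neural cells were detected in part. Of 13 neuron markers 12 were tested, with Dcx, the marker of migrating young neurons, too dim to test. Their sum lay between 53.4 and 64.8 in serum/LIF and between 37.8 and 48.8 in 2i/LIF. For KOSR/LIF it was 43.1, 29.8 and 158 on replicates 1 to 3. For glia, 4 of 6 radial glia and astrocyte markers were tested (between 6.71 and 16.4 in 2i/LIF, 3.81 and 6.43 in serum/LIF and 3.37 and 5.42 in KOSR/LIF), without Fabp7 and S100b, which were too dim. Aldh1l1 carried the higher sum in 2i/LIF (2.06 ± 0.36 against serum/LIF, adjusted p = 0.00209), while Slc1a3 of the same list fell, and without Aldh1l1 the sum lay between 0.465 and 1.04 in 2i/LIF and between 1.78 and 1.85 in serum/LIF. The 5 oligodendrocyte lineage markers tested of 6, without Olig2, summed to 2.37 to 2.64, 1.68 to 2.73 and 1.40 to 2.04 in serum/LIF, 2i/LIF and KOSR/LIF. In the same order the 7 neural crest markers tested of 8 summed to 4.71 to 6.52, 7.78 to 11.4 and 2.60 to 3.79, and the 4 mesoderm markers tested of 5 to 0.935 to 1.45, 0.886 to 1.84 and 1.02 to 1.63. Of the neural crest markers, 1 rose in 2i/LIF against serum/LIF (Tfap2a, 2.88 ± 0.30) and 1 fell (Ets1, -1.25 ± 0.27), beside 16.7% of all genes called. Their median change was -0.40. Ngfr, the brightest of them, had mean log2 levels of 2.88 in 2i/LIF and 2.16 in serum/LIF and was not called there.

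**Figure D5:**
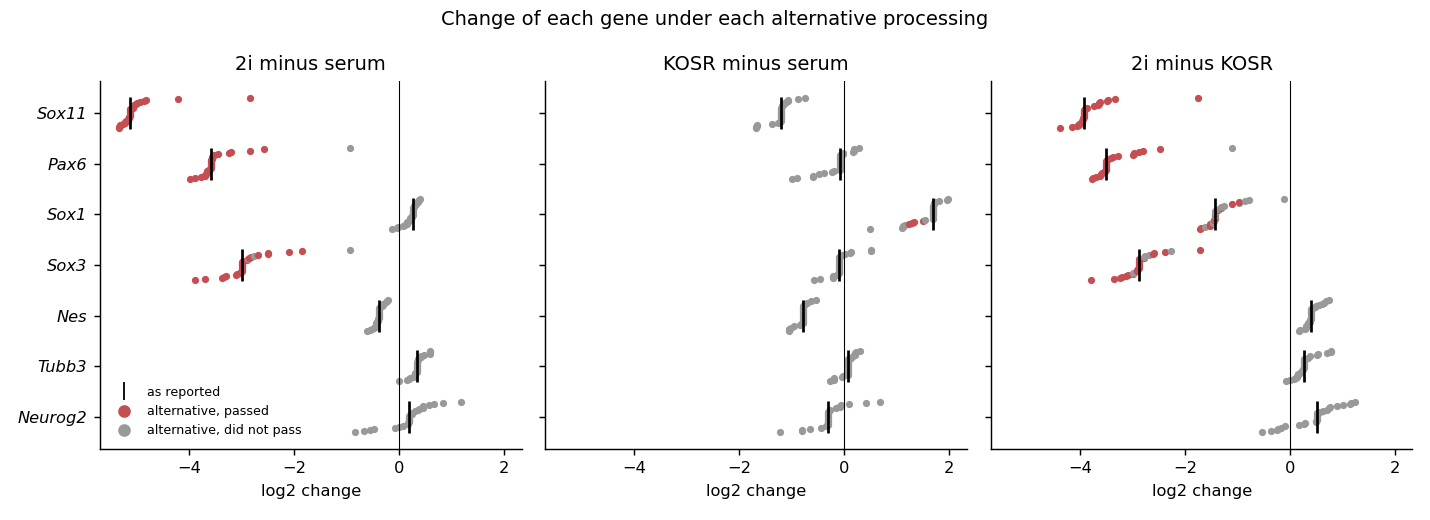
Log2 change of each gene (x axis) under every alternative processing (points, red where the adjusted p stayed under 0.05) beside the value reported here (black bar), in the 3 comparisons (panels); points are spread vertically by rank only. Sox11 stays red throughout, from -5.33 to -2.83 against serum/LIF and from -4.38 to -1.75 against KOSR/LIF, whereas the points of Sox1 in 2i/LIF against KOSR/LIF are red in 12 of 29 alternatives.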

How the data were processed

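RNA of 11 mouse ES cell cultures was measured, each on 1 one-colour array. The scanner intensities used here were deposited on a linear scale. Per the file headers, Agilent's Feature Extraction software, version 11.0.1.1, had subtracted background and detrended each array. The deposited value table also holds linear intensities, with column medians of 46.5 to 47.7, and served as an alternative. Its making by the authors is not given in the sources used. Spots with an outlier flag and control spots were dropped, and 59305 other spots gave 55681 probes, less 33 with no usable spot on some array. RefSeq accessions of 29109 probes led to names for 27642 of them (gene table of GRCm38.p6).

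Levels are log2 of the deposited intensity less the array's 75th percentile. Probes detected well above background on fewer than 3 arrays were dropped, and each gene took its brightest probe. limma 3.58.1 (R 4.3.3) fitted all 11 arrays with medium as the only term, and lmFit and eBayes gave two-sided tests, adjusted by Benjamini-Hochberg over 16279 genes at 0.05. The median SD between replicate arrays was 0.44, at 8 degrees of freedom from the arrays and 3.52 from the prior. Folds written "at least" are bounds for probes that no array of the dimmer medium detected: each dim signal was raised to the lowest well above background on its array. The number of arrays limits precision, and the spread that p-values measure is that between these samples, which may be technical in part.

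The genes and lists were chosen with earlier results of these data known. Genes are named by this rule: all 7, up to 3 per list, direction and comparison that passed with the largest change, and the 3 most like each of the 7 by Pearson's r (clone and locus names left out). A gene the rule names is not reported here. Groups and replicate numbers came from sample titles, and slide and scan day from the file headers. By the titles, some same-numbered arrays of different media share a line. Same-numbered arrays deviated from the means of their media with r of -0.20 to 0.18, and the main fit did not pair them. Cultures of a line in serum/LIF and KOSR/LIF, where the labels agree on the line, gave 0.13, 0.14 and 0.00, and line was tried as a block. Normexp, an alternative, used median signals because the scanner files hold no mean signal column. The test was tried on simulated data. Alternatives varied background correction, scaling, filter, probe, blocks and arrays.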

Additional observations from a re-analysis of the deposited data

Results flagged for a closer look

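Among 44 genes named from the lists or the set and examined over the 5 arrays of 2i/LIF, 2 had an array far from the rest by Dixon's criterion (gap over range above 0.71), which chance passes in about 1 of 20 groups. Id1 stood at -4.08 on 2i/LIF replicate 2 and at -2.01 to -1.44 on the other 4 arrays. The reading of -4.08 was not well above background, so its distance from the rest is uncertain. Id3 stood at -2.21 on the same array and at 0.06 to 0.90 on the others. None of the 7 neural progenitor genes passed the criterion. Neurog2 on 2i/LIF replicate 1 (-1.81, against -6.34 to -5.02 on the others) came to a ratio of 0.708.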

How the results depend on the processing

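Across 29 or 30 alternatives per comparison, no change of the 7 genes that passed the test, and none of the other named genes that passed, turned its direction. Sox11 kept its call in 30 of 30 alternatives in 2i/LIF against serum/LIF and in 29 of 29 against KOSR/LIF. Pax6 kept it in 29 of 30 and 28 of 29, Sox3 in 27 of 30 and 24 of 29, and Sox1 in 12 of 29 against KOSR/LIF. For the other named genes 65 of 688 values lost their call in 2i/LIF against serum/LIF, 37 of 290 in KOSR/LIF against serum/LIF and 102 of 752 in 2i/LIF against KOSR/LIF. Where no cause is given below, it was not tested.

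In 2i/LIF against serum/LIF, 2722 genes were called, 1751 under normexp and 1117 within scan day 3 (3 arrays). In KOSR/LIF against serum/LIF the count was 745 (386 higher, 359 lower), with 371 under normexp (141 higher, 230 lower) and 451 without the filter on dim probes. Of the called genes 62% were lower under normexp and 58.9% under quantile normalization, against 48.2%. Without the filter the median change of all genes moved to 0.147 there and to -0.151 in 2i/LIF against KOSR/LIF. The count in 2i/LIF against KOSR/LIF was 2388, and 1512 under normexp. The set's count in KOSR/LIF against serum/LIF went from 0 to 1 with the deposited value table, scan day or slide as a block and within scan day 1. The gene was Sox1 each time, on its brighter probe (1.33, 1.49, 1.29 and 1.23, adjusted p 0.0128 to 0.0488). In 2i/LIF against KOSR/LIF the count of 4 went to 2 without the 2 arrays of scan day 2, a setting added after the data were seen, where Sox3 stood at -2.26 (adjusted p = 0.0606) and Sox1 at -0.97 (adjusted p = 0.0698). Of the other neural genes, 12 were called in KOSR/LIF against serum/LIF, 6 with the deposited value table, 19 with slide as a block and 19 with only these media in the fit.

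With the replicate number as a block, 2i/LIF against KOSR/LIF gave 1408 genes, 2 of the set (Sox3 at an adjusted p of 0.0504, Sox1 at 0.147) and 22 other neural genes in place of 38. By the titles, same-numbered arrays of serum/LIF and 2i/LIF share a line in replicates 1 to 3, where the labels of 2i/LIF disagree. Replicate 2 of serum/LIF and of KOSR/LIF share HVJu9.3 by both labels. Cell line as a block kept every count within 1.5 times. Beside Sox1 it ended the calls on Phf21a against serum/LIF (-0.67, adjusted p = 0.0604, source names) and Olig1 against KOSR/LIF (-1.88, adjusted p = 0.0564, titles). Slide as a block also ended those on Sox2 (0.61, adjusted p = 0.0611), Olig1 (-2.14, adjusted p = 0.129), Syt1 (-1.85, adjusted p = 0.244) and Rbfox3 (-2.60, adjusted p = 0.0560) against KOSR/LIF.

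Leaving out 1 array at a time gave 1869 to 3203 genes, 2 to 3 of the set and 29 to 40 other neural genes in 2i/LIF against serum/LIF. It gave 225 to 915, 0 and 5 to 15 in KOSR/LIF against serum/LIF, where serum/LIF replicates 1 to 3 (225, 331 and 391 genes; 5, 6 and 6 other neural genes) and KOSR/LIF replicates 1 and 2 (395 and 386 genes) each moved a count by more than 1.5 times, and 1759 to 2593, 2 (without KOSR/LIF replicate 3) to 4 and 27 to 40 in 2i/LIF against KOSR/LIF. Signal over background limits Pax6, Sox11 and Neurog2, which were well above background on 1, 2 and 2 of the 5 arrays of 2i/LIF.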

Other observations

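On KOSR/LIF replicate 3, Snap25, which encodes a synaptic membrane protein, stood at 6.81 against 2.29 to 4.20 on the 10 other arrays, and Syp, of synaptic vesicles, at 3.79 against 1.83 to 2.75. The water channel gene Aqp4 stood at 0.90 there and at -2.06 to -0.50 elsewhere. Not every neuron marker was high on that array: Map2 (-4.50), Gap43 (-0.63) and Rbfox3 (-2.35) stood near their levels on KOSR/LIF replicates 1 and 2, which were -4.78 and -4.31, -0.65 and -0.76, and -2.74 and -2.48. Map2 and Rbfox3 were not well above background on replicate 3, nor was Map2 on replicate 1. These genes were chosen after their values were seen.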
